A study of Mus musculus with 12 samples.

Results

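Acetylation of histone H3 at lysines 9 and 14 (H3K9/14ac) was compared between old and young dystrophic mice that had both received the deacetylase inhibitor trichostatin A (TSA). The cells were fibro-adipogenic progenitors (FAPs), the mesenchymal progenitors of skeletal muscle, and the assay was chromatin immunoprecipitation with sequencing (ChIP-seq). The comparison uses the 2 H3K9/14ac libraries of TSA-treated mice, of 12 samples in the series (8 immunoprecipitated and 4 input). All mice were C57Bl6 mdx, a strain without dystrophin, so the controls carry the mutation too. Old mice were 12 months and young mice 1.5 months of age. Each received 0.6 mg/kg of TSA per day into the peritoneum for 15 days, and vehicle mice received saline. FAPs were isolated by flow cytometry; the gate, the number of animals per library and any pooling are not given in the sources used here. There was 1 library per mark, age and treatment, so every difference below is between single libraries, with no replicate check and no test.

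The peak lists used here end before the last chromosome, and the stretch that both TSA lists cover, chromosomes 1 to 3 and chromosome 4 up to position 155236417 (build GRCm38), was compared. It holds 4824 peaks of the old TSA library, 24.3% of the 19869 in its header, and 6428 of the young TSA library, 24.6% of 26122. Peaks that overlapped by 1 bp or more were merged into 6281 regions. Of these, 3785 held a peak in both libraries, 566 in old TSA only and 1930 in young TSA only.

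Acetylated lysines 9 and 14 of histone H3 mark the nucleosomes that flank active promoters, mostly at CpG-rich start sites, and also lie at active enhancers. Acetyltransferases write the mark, and deacetylases, the targets of TSA, remove it. FAPs support muscle regeneration, and in dystrophic muscle they give rise to fat and to collagen-producing fibroblasts.

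Promoter sequences of 6 genes show the range of start sites that stood furthest apart between the libraries. They are the first genes in each direction whose most divergent region touched a promoter and whose start is listed in RefSeq (GRCm38.p6). Slco5a1 and Aplnr, with such regions near a gene end, had no listed start and are shown without sequence. Each sequence spans 300 bases around the start site, mostly upstream, 5′ to 3′. Capitals mark matches, on either strand, to any of 10 motifs searched. These were the AP-1 motif TGANTCA, the binding motif of Sp and Klf factors known as the GC box, GGGCGG, the box of factor NF-Y, CCAAT, and the core promoter element TATAAA, called the TATA box. The others were the cyclic AMP response element TGACGTCA, the E-box of Myc and related factors, CACGTG, the motif of Runx factors, TGTGGT, the motif of TEAD factors, GGAATG, the motif of Stat factors, TTCCNGGAA, and a motif of NF-kB. Matches may overlap. A match is a description of letters and not a binding site. The first 3 had more tags in old TSA.
Lrrc42 (chr4:107253484-107253783, minus strand): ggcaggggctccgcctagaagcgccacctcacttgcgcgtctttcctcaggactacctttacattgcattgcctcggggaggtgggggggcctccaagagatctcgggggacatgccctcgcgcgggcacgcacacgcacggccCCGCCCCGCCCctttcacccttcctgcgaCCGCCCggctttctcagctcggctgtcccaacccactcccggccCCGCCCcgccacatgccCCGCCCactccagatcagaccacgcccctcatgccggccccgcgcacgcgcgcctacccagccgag
Ppp1r12b (chr1:134803793-134804092, minus strand): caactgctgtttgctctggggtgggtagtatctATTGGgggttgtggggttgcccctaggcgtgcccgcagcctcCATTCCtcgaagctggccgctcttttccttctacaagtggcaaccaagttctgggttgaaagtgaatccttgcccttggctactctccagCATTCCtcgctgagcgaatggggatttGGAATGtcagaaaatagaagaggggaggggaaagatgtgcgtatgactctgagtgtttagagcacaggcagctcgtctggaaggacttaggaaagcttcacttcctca
Rtn4rl2 (chr2:84886643-84886942, minus strand): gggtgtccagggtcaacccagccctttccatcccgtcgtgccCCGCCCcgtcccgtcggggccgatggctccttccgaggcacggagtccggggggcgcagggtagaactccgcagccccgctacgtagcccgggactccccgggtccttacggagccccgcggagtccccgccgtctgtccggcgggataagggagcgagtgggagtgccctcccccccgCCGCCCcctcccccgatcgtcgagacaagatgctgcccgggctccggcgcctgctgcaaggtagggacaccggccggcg
The next 3 had fewer tags in old TSA, or a peak in young TSA only.
Casp8 (chr1:58802252-58802551, plus strand): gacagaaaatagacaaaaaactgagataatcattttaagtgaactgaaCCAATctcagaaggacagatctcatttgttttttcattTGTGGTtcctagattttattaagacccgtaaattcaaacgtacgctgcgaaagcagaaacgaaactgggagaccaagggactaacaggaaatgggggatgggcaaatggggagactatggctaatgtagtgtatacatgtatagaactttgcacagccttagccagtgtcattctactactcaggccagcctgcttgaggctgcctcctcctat
Ece1 (chr4:137920543-137920842, plus strand): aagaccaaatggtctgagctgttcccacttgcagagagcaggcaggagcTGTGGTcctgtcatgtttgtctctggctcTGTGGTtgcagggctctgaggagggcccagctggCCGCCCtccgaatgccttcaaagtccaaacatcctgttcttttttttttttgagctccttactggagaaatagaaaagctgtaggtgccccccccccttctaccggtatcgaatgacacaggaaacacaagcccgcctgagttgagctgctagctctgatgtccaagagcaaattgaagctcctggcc
Pou2f1 (chr1:166002585-166002884, minus strand): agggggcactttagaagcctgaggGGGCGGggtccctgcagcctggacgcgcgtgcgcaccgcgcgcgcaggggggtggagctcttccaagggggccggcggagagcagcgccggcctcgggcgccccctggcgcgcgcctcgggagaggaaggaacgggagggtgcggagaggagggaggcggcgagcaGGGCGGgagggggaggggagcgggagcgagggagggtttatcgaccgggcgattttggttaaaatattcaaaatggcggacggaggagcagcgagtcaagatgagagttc
CpG-rich and CpG-poor starts occurred on both sides. The sequences of Lrrc42, Rtn4rl2 and Pou2f1 held 30, 35 and 32 CpG dinucleotides, and those of Ppp1r12b, Casp8 and Ece1 held 8, 5 and 5. The median over all 5408 promoter sequences of the stretch was 13. GC boxes stood in 4 of the 6, against 47.2% of all promoters, and CCAAT, the Runx motif and the TEAD motif stood in 37.1%, 13.9% and 13.4% of all promoters. The regions cover Ppp1r12b, Rtn4rl2 and Ece1 over the whole window, Lrrc42 over 23 bases and Casp8 over 10 bases, and the Pou2f1 region starts 267 bp upstream of the start site.

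The old TSA library had fewer but wider peaks. Its peaks had a median width of 900 bp and a median of 136.5 tags (19 to 988). Young TSA peaks had a median width of 682 bp and 109 tags (20 to 1646). In all, peaks held 826505 tags over 4.94 Mb in old TSA and 1221741 tags over 5.37 Mb in young TSA, which is 167 and 228 tags per kb. Library totals are not given in the sources used here, so tag ratios were centred on their median. The similarity of the mark's 4 libraries did not follow age or treatment. Over 1709 regions with a peak in each, on chromosome 1 and chromosome 2 up to position 167064301, Spearman's rho of tags was 0.911 for young TSA with old vehicle, 0.909 for young TSA with young vehicle, 0.902 for old TSA with young vehicle and 0.898 for old TSA with young TSA. It was 0.879 both for old TSA with old vehicle and for the vehicle pair. These points share regions and peak strength and are given as a description. Whether labels were exchanged among these libraries was not tested. An exchange cannot be told apart here from a difference of age, treatment, tag number or peak width. Every old and young value below is therefore that of the library labelled so.

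Of 5252 protein-coding genes in the stretch, 3574 had a peak in the gene or within 10000 bp. A promoter was marked in both libraries in 2863 genes, and list counts are to be read against these. All 10 listed FAP identity genes that lie in the stretch had a peak, and 9 had a marked promoter in both libraries. Among them were Vim, the gene of vimentin, Prrx1, a homeobox factor of limb mesenchyme, and Cd34, a progenitor antigen. Pdgfra and Ly6a, the usual sorting markers of FAPs, lie outside the stretch and were not analysed here. Of 21 macrophage markers 9 had a peak, Spi1 and Lyn among them, and Ptprc, C1qa, C1qb, C1qc and Mrc1 had none. Of 24 muscle fibre genes 15 had a peak within 10000 bp, Casq1 among them, and 1 had a marked promoter in both libraries. Ttn, Neb, Actc1 and Myl1 were among those without a peak. Of 7 muscle stem cell genes 5 had a peak, each with a promoter marked in both libraries (Sdc4, Cxcr4, Msc, Vcam1 and Heyl), and the defining factors Pax7 and Pax3 had none. Lymphocyte genes had a peak in 10 of 23, and 1 of the 23 had a promoter marked in both libraries. Endothelial genes were marked more broadly, 14 of 18 with a peak and 12 with a promoter marked in both. In such bulk samples fewer cells of a type and less acetylation per cell cannot be told apart.

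H3K9/14ac regions shared by the ages lay mostly at promoters. Of the 3785 shared regions, 77.0% (exact 95% binomial interval 75.6 to 78.3) lay within 1000 bp of an annotated start, or of either gene end where no start was listed. The share was 24.0% (20.6 to 27.8) of the old TSA only regions and 19.2% (17.5 to 21.1) of the young TSA only regions. Regions of a single library lay mostly inside genes, 55.1% (50.9 to 59.3) for old and 55.3% (53.0 to 57.5) for young. Another 20.8% and 25.5% lay outside genes. The intervals cover counting error only. Shared regions held 96.7% of the old and 91.1% of the young tags, and 88.3% of old peaks and 70.0% of young peaks overlapped a peak of the other library.

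Single-library regions were small and weak. Their median length was 340.5 bp in old and 354 bp in young, against 1132 and 1100 bp for shared regions. They held a median of 42 and 48 tags, against 184 and 249, and 96.5% of the old only and 92.8% of the young only regions had fewer than 100 tags. With the same number of peaks taken from each list, the 4824 with the most tags, 778 regions were in old TSA only and 775 in young TSA only. Lists of equal length give nearly equal numbers by construction, so these counts do not show where the excess of young regions comes from.

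Of 5252 protein-coding genes, 2863 had a marked promoter in both libraries and 2154 in neither. A promoter was marked in old TSA only in 45 genes (0.857%) and in young TSA only in 190 genes (3.62%). Promoters marked in both were CpG-rich, with a median count of 22 CpG against 13 over all promoters. The median was 12.5 in the 46 marked in old only, 14 in the 215 marked in young only and 4 in those marked in neither. Genes can have several starts, so promoters outnumber genes. In promoters with 25 or more CpG, 88.1% were marked in old and 91.2% in young. In those with fewer than 5 CpG, 7.47% and 8.51% were marked. The GC box stood in 68.2% of promoters marked in both, 54.3% of those marked in old only, 62.8% of those marked in young only and 18.6% of unmarked ones. The TATA box ran the other way, with 5.56%, 8.70%, 7.91% and 21.5%.

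The shape of the mark at start sites differed slightly. Of 5408 start sites of known strand, 44.1% were covered in old TSA and 47.4% in young TSA at the start itself. At 100 bp upstream, where active promoters usually have a nucleosome-free gap, 35.4% were covered in old and 43.2% in young. At 1000 bp downstream the order was the reverse, 23.9% in old and 20.5% in young. Where peaks stood on both sides of the start, the gap at 100 bp upstream was uncovered at 311 of 1997 starts (15.6%) in old and 238 of 2225 (10.7%) in young. Peaks that crossed a start reached a median of 905 bp downstream in old and 780 bp in young, and 362 and 372.5 bp upstream.

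**Figure D1:**
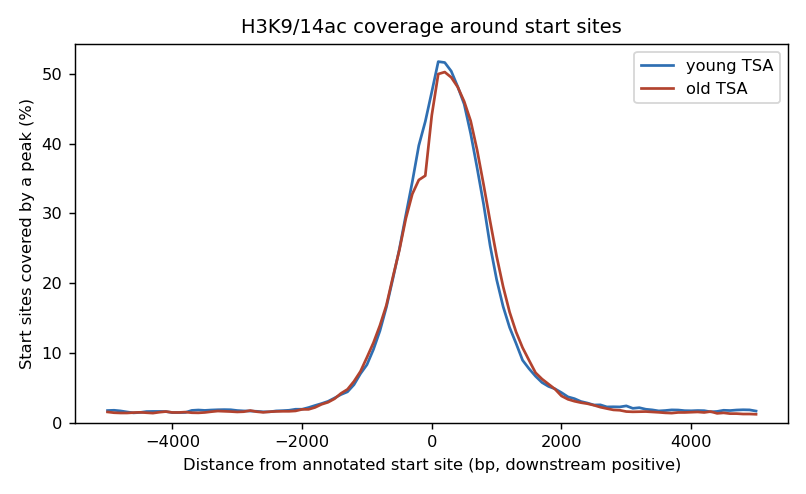
Share of 5408 annotated start sites (%) that lie under an H3K9/14ac peak, by distance from the start in bp, for 1 old TSA library and 1 young TSA library. Both curves peak just downstream of the start; at 100 bp upstream old TSA stands at 35.4% and young TSA at 43.2%, and at 1000 bp downstream old TSA is the higher, 23.9% against 20.5%.

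The 4 libraries of the mark were ordered differently by the 2 measures. On the stretch that all 4 cover, coverage at 1000 bp downstream was 23.3% in old TSA, 22.8% in young vehicle, 19.9% in young TSA and 16.4% in old vehicle. The gap at 100 bp upstream was uncovered at 24.2% of flanked starts in young vehicle, 20.6% in old vehicle, 14.5% in old TSA and 10.1% in young TSA. For the gap both TSA libraries were lower than both vehicle libraries, while for downstream coverage old TSA and young vehicle were the higher pair. That pair also had fewer tags in peaks on this stretch, 426273 and 452476, against 631446 in young TSA and 608674 in old vehicle. Its median peak widths were larger, 910 and 730 bp against 689 and 641 bp. The part of tag number and peak width in this pairing was not tested.

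Tag counts of shared regions followed each other closely. Spearman's rho over the 3785 regions was 0.914, and the median log2 ratio of old over young tags was -0.47, or 0.724 on the linear scale. After centring on that median, the log2 ratios had an SD of 0.51 and quartiles of -0.26 and 0.29. A centred difference of 2-fold or more, with at least 40 tags over both libraries, was met by 150 regions (3.96%) that were higher in old TSA and 70 (1.85%) that were lower. Centring on the total tags in peaks instead gave 203 higher and 53 lower. The values nearest the threshold were 1.00007 and 0.99956 above, and -1.00058 and -0.98122 below.

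These ratios followed the covered length. All 150 higher regions were wider in old and all 70 lower ones narrower, and rho between tag ratio and length ratio was 0.709. Tags are counted inside each library's own peaks, so a wider peak holds more tags. Per bp of peak, 5 regions were higher and 2 lower by 2-fold. Of the 150, 34 were below 0 per bp, and of the 70, 54 were above 0. At promoters 58.4% of 2915 shared regions were wider in old, with medians of 1242 and 1185 bp. Inside genes the share was 48.4% of 521, with 779 and 818 bp, and outside genes 41.3% of 349, with 679 and 706 bp.

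**Figure D2:**
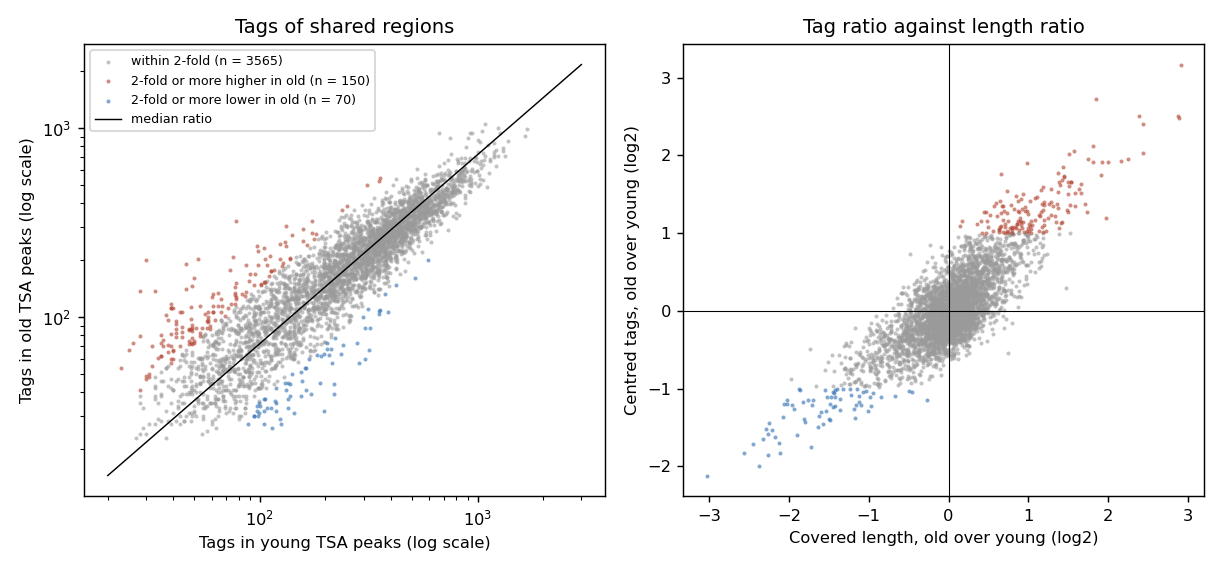
Left, tags of the 3785 shared regions in young TSA and old TSA peaks, both axes logarithmic, with the line of the median ratio; right, the centred log2 tag ratio of old over young against the log2 ratio of covered length. The 150 regions higher in old TSA all lie right of 0 in the second panel and the 70 lower ones all lie left of 0.

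Among shared regions with at least 100 tags, the highest ratio stood outside genes on chromosome 2 (30719212 to 30721043), 80694 bp from 1700001O22Rik, with 201 tags over 1832 bp in old TSA and 30 tags over 244 bp in young TSA. Its centred log2 ratio was 3.17 ± 0.28 (counting error) and 0.30 per bp. The vehicle libraries had 237 tags there in old and 28 in young, so both old libraries were high and both young ones low. Most of the other 9 lay at promoters or gene ends. Ppp1r12b, a regulatory subunit of myosin phosphatase, had 192 tags in old TSA and 46 in young TSA at its promoter, a ratio of 2.50 ± 0.23. The vehicle libraries had 153 tags in old and 195 in young, so young TSA was the only low one of the 4. Zeb2, a zinc-finger factor of mesenchymal cells, had 137 and 33 tags inside the gene, with 2.49 ± 0.28, and neither vehicle library had a peak there. Lrrc42 had 138 and 28 tags, with 2.73 ± 0.29 and 0.92 per bp. Fabp4, the fatty acid binding protein of adipocytes, had 146 tags over 1171 bp in old and 49 tags over 412 bp in young, 620 bp from its start, with 2.02 ± 0.24 and 0.53 per bp. H3K27ac, the other mark of the series, had 413 tags in old TSA and 607 in young TSA at the Fabp4 region. Others of the 10 highest were Lrrc8a, a volume-regulated anion channel, Rtn4rl2, Sh3d19 and Nfia.

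Of the 10 lowest ratios, 8 lay inside genes and away from promoters. Tns1, the gene of the focal adhesion protein tensin 1, had 32 tags over 199 bp in old TSA and 197 tags over 1618 bp in young TSA, a ratio of -2.12 ± 0.27. The peak that remained in old TSA was denser, 0.87 per bp after centring. Tln1, the gene of talin, which links integrins to actin, had 39 and 219 tags, with -1.99 ± 0.25. Ralgds, an exchange factor for Ral, had 60 and 303 tags, with -1.85 ± 0.20, and old vehicle also had 303 while young vehicle had no peak. Casp8, the initiator caspase of death receptors, had 31 and 144 tags 40 bp from its start, with -1.71 ± 0.28. Notch2, a Notch receptor, had 26 and 114 tags, with -1.62 ± 0.31. The others of the 10 were Slco5a1, Dab2ip, Rgs3, Gnas and Dnm1. Of these 10 regions, 9 were above 0 per bp and Rgs3 stood at -0.05.

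Regions with a peak in only 1 TSA library seldom carried many tags. The strongest in old TSA only lay inside Dlgap4 with 153 tags, followed by the promoters of Fkbp7, an isomerase of the endoplasmic reticulum, with 147, and of Mr1, which presents metabolites to T cells, with 142. Each of these regions had a peak in both vehicle libraries too, with 162 tags in old and 115 in young at Dlgap4. The counts were 131 and 223 at Fkbp7 and 120 and 193 at Mr1, so young TSA was the library without a peak. The promoter of Tmem74b had 142 tags in old TSA and a peak in none of the other 3. Others were in or near Rsrp1, Mbnl1, Dnajb4, Rad54l, Cgn and Rere.

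In young TSA only, the strongest lay inside Hjurp, the chaperone of centromeric histone, with 260 tags. The vehicle libraries had 499 tags in old and 198 in young there, so old TSA alone lacked a peak. No start was listed for Aplnr, the apelin receptor of endothelial cells. Within 1000 bp of either gene end it had 2 such regions, with 255 and 216 tags. Young vehicle had 457 and 413 tags at them and old vehicle had no peak at the first and 214 tags at the second. H3K27ac at Aplnr was 683 tags in old TSA and 1218 in young TSA over both. Ece1, the endothelin-converting enzyme, had 215 tags, Pou2f1, the gene of Oct-1, 203, and a second Tns1 region 204. A region 11200 bp from Nes, the gene of nestin, had 200 tags and no peak in old vehicle. The remaining ones were in or near Soga1, Rnf220 and Tex44.

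H3K27ac marks active promoters and enhancers, and its TSA libraries offered a second readout at the same regions. An H3K27ac peak overlapped 85.5% (84.3 to 86.6) of shared regions in old TSA and 82.8% (81.5 to 84.0) in young TSA. For old only regions the shares were 68.6% (64.5 to 72.4) and 58.8% (54.7 to 62.9). For young only regions they were 47.6% (45.4 to 49.9) and 42.5% (40.3 to 44.7), and 949 of the 1930 had no H3K27ac peak in either. Regions with an H3K9/14ac peak in young TSA only thus had the lowest share with H3K27ac in both ages. In each class of regions the old TSA share was the higher. The old TSA list of H3K27ac was also the longer, with 10532 peaks over 9.59 Mb against 8225 over 8.28 Mb in young TSA.

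The ratios of the marks were weakly related. Over 3092 regions with both marks in both libraries, rho between the centred ratios of old over young was 0.204, as a description across regions. Of 101 regions higher in old TSA for H3K9/14ac, 64 had an H3K27ac ratio above 0, with a median of 0.15. Of 50 lower ones, 15 were above 0, with a median of -0.26. Over all 3092 the share was 40.6% and the median -0.09.

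The vehicle lists were searched at the same regions on the shorter stretch that they cover. Of 1973 shared regions, 94.6% (93.5 to 95.6) had a peak in old vehicle and 89.4% (87.9 to 90.7) in young vehicle. Of 266 old TSA only regions, 38.0% (32.1 to 44.1) had one in old vehicle and 35.7% (30.0 to 41.8) in young vehicle. Of 992 young TSA only regions, 30.5% (27.7 to 33.5) had one in old vehicle and 15.2% (13.0 to 17.6) in young vehicle. Neither vehicle list had a peak at 45.9% and 63.1% of them.

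Over whole genes with 10000 bp either side, the summed peak length (acetylated length) was longer in old TSA for 1688 of 3574 genes with a peak (47.2%) and shorter for 1884 (52.7%). The median difference was -33.5 bp. Large losses outnumbered large gains: 80 genes were shorter by 2000 bp or more and 9 longer. Of 3320 genes with peaks in both libraries and enough tags, 56 (1.69%) were 2-fold higher in old and 86 (2.59%) lower in centred tags. The balance of longer and shorter genes depended on list length, since equal numbers of peaks gave 1934 longer and 1549 shorter. It also depended on the library: on the stretch of all 4 lists the counts were 899 longer and 991 shorter, with old vehicle in place of old TSA 541 and 1368, and with young vehicle in place of young TSA 1106 and 723.

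The 10 genes with the largest gain were led by Camk2d and Zeb2. Camk2d, a calcium/calmodulin-dependent kinase (chromosome 3, 126595487 to 126846326), was covered over 7341 bp in old TSA and 3400 bp in young TSA. It held 10 peaks in old and 3 in young. Its centred tags were 0.64 ± 0.06 (log2, counting error), and -0.47 per bp. Zeb2 was covered over 9438 and 6187 bp, with 0.91 ± 0.06 and 0.30 per bp. Mcl1, an anti-apoptotic protein of the Bcl-2 family, was covered over 6260 and 3766 bp, with 0.36 ± 0.06. Wwtr1, the gene of the Hippo pathway co-activator TAZ, was covered over 7470 and 5257 bp, with 0.18 ± 0.06. Calcrl, the receptor of adrenomedullin and calcitonin gene-related peptide, was covered over 3043 and 879 bp, with 1.93 ± 0.14, the highest tag ratio of these 10. Gask1b had 4676 and 2037 bp, with 1.21 ± 0.09, and Isg20l2 had 3178 and 1162 bp, with 1.51 ± 0.11. Il1r1, the interleukin-1 receptor, had 4457 and 2478 bp, with 0.66 ± 0.08. Dnajb4, a chaperone, and Hnrnpu, an RNA-binding protein, completed the group with 5246 and 2787 bp and 6096 and 3862 bp.

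The 10 genes with the largest loss were led by Tns1 and Hspg2. Tns1 (chromosome 1, 73910232 to 74124548) was covered over 12049 bp in old TSA and 22311 bp in young TSA, in 13 and 31 peaks, with centred tags of -0.51 ± 0.04. Hspg2, the gene of the basement membrane proteoglycan perlecan (chromosome 4, 137468751 to 137570630), was covered over 12613 and 22723 bp, with -0.54 ± 0.04. Notch1, a Notch receptor (chromosome 2, 26457902 to 26503822), was covered over 3298 and 9576 bp in 4 and 11 peaks, with -1.25 ± 0.08, the lowest tag ratio of these 10. Rxra, the nuclear receptor partner of the adipogenic factor PPARγ, was covered over 6870 and 12957 bp, with -0.68 ± 0.06. Itpkb, an inositol phosphate kinase, had 9267 and 16370 bp. Dab2ip, a Ras GTPase-activating protein, had 6397 and 13299 bp, and Rgs3, a regulator of G protein signalling, 6043 and 13652 bp. Soga1, Iffo2 and Niban2 had 5174 and 11062, 7475 and 12505, and 7371 and 12373 bp. In all 10 the remaining peaks were slightly denser in old TSA, by 0.06 to 0.38 per bp after centring. H3K27ac was not shorter at each of them: at Tns1 it covered 57985 bp in old TSA and 44108 bp in young TSA, and at Notch1 18000 and 16244 bp.

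**Figure D3:**
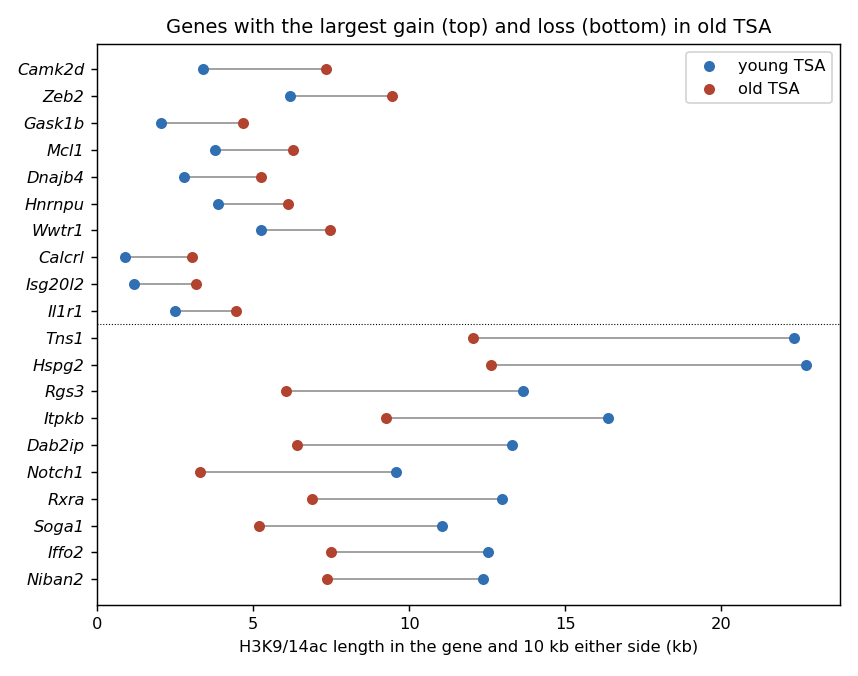
H3K9/14ac length (kb) in the gene and 10 kb either side for the 10 genes with the largest gain (above the dotted line) and the 10 with the largest loss in old TSA; each point is 1 library and the line joins old and young. Losses are larger than gains: Tns1 stands at 12049 bp in old and 22311 bp in young, and Camk2d at 7341 and 3400 bp.

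**Figure D4:**
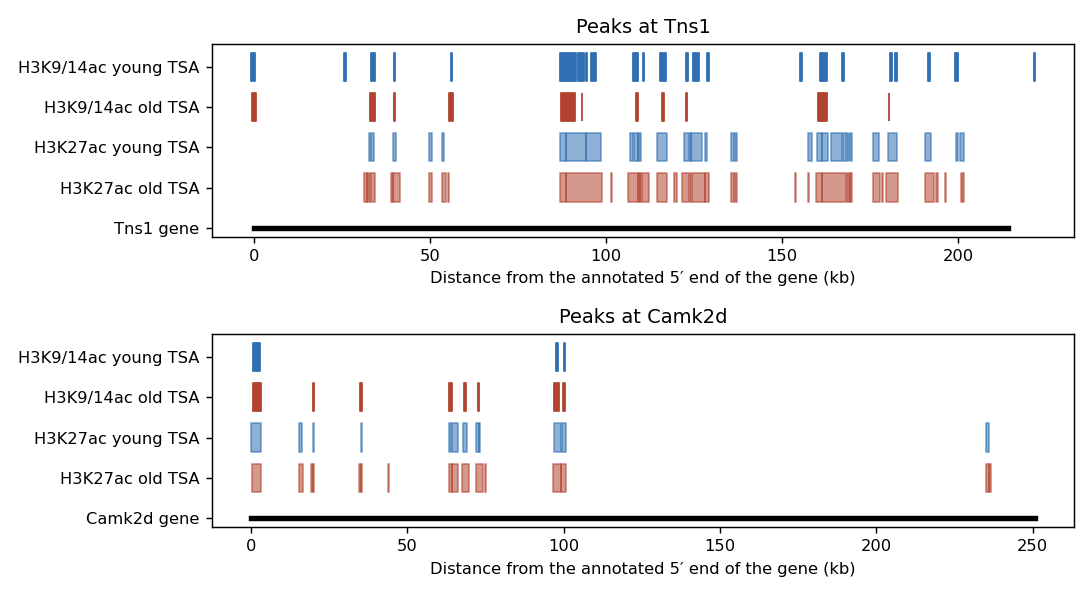
Peaks of H3K9/14ac and H3K27ac in old TSA and young TSA along Tns1 and Camk2d, in kb from the annotated 5′ end of the gene; each bar is 1 peak and the black line is the gene. At Tns1 young TSA has 31 H3K9/14ac peaks and old TSA 13; at Camk2d old TSA has 10 peaks and young TSA 3.

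Gene lists were described by the share of members with a longer acetylated length, which is to be read against 47.2% of all genes with a peak. Matrix genes were mostly shorter in old TSA: 10 of 33 were longer and 23 shorter, with a median difference of -523 bp. With equal numbers of peaks they were 13 longer and 19 shorter. On the stretch of 4 lists they were 8 and 10, where all genes were 899 and 991. With old vehicle in place of old TSA they were 5 and 13, and with young vehicle in place of young TSA 5 and 11. Per bp the median of the list was 0.16, against 0.00 over all genes. Col5a1, a chain of type V collagen, was covered over 3912 bp in old and 5958 bp in young, with centred tags of -0.52 ± 0.07. Adamts4, an aggrecan-cleaving protease, had 5593 and 6637 bp. Lamc1, a laminin chain, went the other way with 5391 and 4321 bp and 0.14 ± 0.07, and so did Itgav, the integrin alpha V chain, in length only, with 3213 and 2727 bp and -0.05 ± 0.08. Adamtsl4 had 6676 and 6962 bp. Of the other members, chosen after their values were seen, Col3a1, the gene of type III collagen, had 1765 and 357 bp and 2.57 ± 0.23. Young vehicle had 1749 bp there and old vehicle 161 bp, so the high pair was old TSA and young vehicle. Sdc3, a syndecan also chosen after its values were seen, had 1811 and 6088 bp and -1.31 ± 0.10. In H3K27ac, 24 matrix genes were longer in old TSA and 6 shorter, where 55.4% of all 3278 genes with an H3K27ac peak were longer and 44.5% shorter.

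FAP identity genes were 6 longer and 4 shorter in old TSA, near the share over all genes. Vim was covered over 4538 bp in old and 3076 bp in young, with centred tags of 0.41 ± 0.07. Gsn, the gene of gelsolin, had 4672 and 2855 bp, with 0.57 ± 0.09, and Cd34 had 3431 and 1998 bp, with 0.61 ± 0.10. Prrx1 had 3103 and 2883 bp, Pdpn, the gene of podoplanin, 2177 and 1727 bp, and Twist2, a mesenchymal bHLH factor, 1468 and 2044 bp. The median centred tags of the list were 0.41, against -0.06 over all genes with peaks in both libraries. On the stretch of 4 lists 5 of 8 were longer and 3 shorter, with old vehicle in place of old TSA 4 and 4, and with young vehicle in place of young TSA 4 and 3. All 10 were longer in old TSA for H3K27ac, Prrx1 with 16835 and 9648 bp, against 55.4% of all genes with an H3K27ac peak.

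Cell cycle genes were mostly shorter, 21 of 27 against 52.7% of all genes, with a median of -326 bp and median centred tags of -0.50. The balance was close to this with equal numbers of peaks, 7 longer and 20 shorter. On the stretch of 4 lists it was 3 and 12 as labelled, 2 and 13 with old vehicle and 4 and 10 with young vehicle substituted. Over all genes of that stretch the counts were, in the same order, 899 and 991, 541 and 1368, and 1106 and 723. Each substitution keeps a library of the labelled pair, so these counts are not independent. Of the 6 with the most tags, 3 were longer and 3 shorter. Plk3, a stress-responsive Polo kinase, had 5001 bp in old and 4570 bp in young, Cdc25b, a phosphatase that activates cyclin-dependent kinases, 4439 and 4377 bp, and Aurka, the Aurora A kinase, 2332 and 1990 bp. Cks1b had 3606 and 4417 bp, Cdc20 3017 and 4120 bp and Kif2c 3166 and 3986 bp. Of 25 members with peaks in both libraries, 5 were 2-fold lower and 1 higher, against 2.59% and 1.69% of all such genes. The 5 lower ones, E2f1, Nek2, Stil, Ube2c and Cenpf, were singled out after their values were seen. E2f1, which drives entry into DNA replication, had 1436 and 3300 bp, with -1.12 ± 0.13. Ube2c, a ubiquitin-conjugating enzyme of mitosis, had 187 and 869 bp, with -1.53 ± 0.28. Mybl2, at 1043 bp in young TSA, had no peak in old TSA. Cenpe was 2-fold higher, with 1240 and 472 bp. In H3K27ac 17 members were shorter in old TSA and 5 longer, against 44.5% and 55.4% of all genes with an H3K27ac peak. Per bp the median of the list was 0.04 for H3K9/14ac, against 0.00 over all genes.

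Wnt, Notch and Hedgehog genes were shorter in 21 of 26. The receptor Notch1 is given above, and its ligands Jag1 and Dll4 had 4037 and 4305 bp, and 4428 and 8120 bp, in old and young, with Dll4 at -0.81 ± 0.08. Among Wnt components, the receptor Fzd7 had 4087 and 4445 bp, and Wls, which carries Wnt proteins to the cell surface, 2498 and 2220 bp. This balance rested on the libraries chosen: on the stretch of 4 lists 3 members were longer and 12 shorter, with young vehicle in place of young TSA 12 and 3, and with old vehicle in place of old TSA 6 and 9. With equal numbers of peaks the whole list had 9 longer and 17 shorter. The Hox genes, patterning factors of which 6 had a peak, showed the same turn, with 0 longer and 6 shorter as labelled and 6 longer and 0 shorter with young vehicle. Hoxd8 had 5125 and 5599 bp and Hoxd9 3246 and 4214 bp. Median centred tags of the Hox list were -0.01.

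Adipogenic genes were divided, 7 longer and 9 shorter of 16. Rxra is given above. Irs1, an adaptor of the insulin receptor, had 7743 bp in old and 7070 bp in young, with 0.34 ± 0.06, and Nr1h3, the gene of the oxysterol receptor LXRα, 3647 and 3110 bp, with 0.40 ± 0.08. Cebpb, an early adipogenic factor, had 3480 and 4323 bp, with -0.24 ± 0.08. Adipor1, an adiponectin receptor, had 2886 and 2764 bp and Elovl1, a fatty acid elongase, 2720 and 3424 bp.

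Genes of senescence and its secretory products were divided evenly, 7 longer and 7 shorter. Lmna, the gene of lamin A, had 9685 and 9529 bp, with 0.14 ± 0.05. Cdkn2c, a cyclin-dependent kinase inhibitor, had 6111 and 4770 bp, and Fgf2, a growth factor, 2218 and 1395 bp. Csf1, F3 and Ccn1 had 3629 and 4205, 2476 and 2590, and 5004 and 5654 bp. Igfbp5, a secreted binder of insulin-like growth factors chosen after its values were seen, had 518 and 2347 bp, with -2.00 ± 0.22, and its promoter was marked in young only. Cdkn2a, the locus of p16 and p19, also chosen after its values were seen, had 1424 and 718 bp, with 0.82 ± 0.17.

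Inflammatory and interferon genes were 15 longer and 14 shorter. Il1r1 is given above. Nfkb1, a subunit of NF-kB, had 2977 and 2803 bp, B2m, a chain of class I antigen presentation, 1959 and 1511 bp, and Gbp5, an interferon-induced GTPase, 2716 and 1652 bp with 0.43 ± 0.10. Ackr3, a scavenging chemokine receptor, had 3434 and 3955 bp and Ikbke, a kinase of innate signalling, 2136 and 2999 bp.

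Immediate early and stress genes were 7 longer and 10 shorter. Jun, a subunit of AP-1, had 4315 and 4210 bp in old and young, with -0.30 ± 0.06. Klf4 had 5856 and 4782 bp, Txnip, an inhibitor of thioredoxin, 6619 and 5312 bp with 0.47 ± 0.06, and Nr4a2, an orphan nuclear receptor, 4496 and 4167 bp. Genes of acetylation enzymes and their readers were 5 longer and 11 shorter, with a median difference of only -109 bp and median centred tags of -0.03. With equal numbers of peaks the balance was 8 and 7. Brd3, a bromodomain reader, had 4874 and 5796 bp, Rere, a corepressor, 8014 and 6818 bp, Ncoa2, a nuclear receptor coactivator, 3048 and 3152 bp and Rcor3 4150 and 4419 bp. Mecom had 5986 and 6151 bp and Mier1 2894 and 2779 bp. None of the 15 members with peaks in both libraries differed by 2-fold, where 1.69% of all such genes were higher and 2.59% lower.

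Housekeeping genes combined longer coverage with fewer tags per bp in old TSA. All 40 had a marked promoter in both libraries; 25 were longer in old and 15 shorter, with a median difference of 155.5 bp. Median centred tags were -0.11, and -0.14 per bp. Rbm39, a splicing factor, had 4726 and 3690 bp, with 0.01 ± 0.06, and Rpl7, a ribosomal protein, 4095 and 3567 bp, with -0.09 ± 0.07. Capza1 had 3930 and 3940 bp, Eif4g3 4184 and 3942 bp, and Set 5099 and 6572 bp. Capzb, an actin capping protein, was far shorter in old, with 3803 and 7785 bp. In H3K27ac only 12 of the 40 were longer in old TSA, against 55.4% of all genes with an H3K27ac peak. On the stretch of 4 lists the counts were 11 longer and 8 shorter, with old vehicle in place of old TSA 5 and 14, and with young vehicle in place of young TSA 9 and 10.

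Genes of other cell types differed in direction. Endothelial genes were 5 longer and 9 shorter of 14, with a median of -537.5 bp, and their summed length was 36293 bp in old TSA and 47519 bp in young TSA. Egfl7, a secreted vascular factor, had 6343 and 9964 bp, with -0.57 ± 0.06. Eng, the gene of endoglin, had 2678 and 7157 bp, with -1.11 ± 0.08, and Sox18, a vascular transcription factor, 2704 and 4780 bp. Tal1 had 3029 and 4651 bp and S1pr1 3518 and 4205 bp. Clic4 went the other way, with 5285 and 4025 bp. Cd34 was also longer, as given above. The 3 members that were 2-fold higher, singled out after their values were seen, were Tm4sf1 with 2119 and 1426 bp and 1.35 ± 0.14, Tek, the gene of the angiopoietin receptor, with 1343 and 752 bp and 1.07 ± 0.16, and Emcn with 415 and 254 bp. Eng was the 1 member that was 2-fold lower, of 13 with peaks in both libraries. Over all such genes 1.69% were 2-fold higher and 2.59% lower. Tie1, likewise singled out, had 1256 bp in young and no peak in old. In H3K27ac 12 endothelial genes were shorter in old TSA and 2 longer, against 44.5% and 55.4% of all genes with an H3K27ac peak. The list thus went both ways. Among genes outside the list that endothelial cells also express, Notch1, Dll4 and Aplnr were lower in old TSA. Calcrl was higher, with 3043 and 879 bp. The part of endothelial cells in these differences was not tested.

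Pericyte and smooth muscle genes were 0 longer and 5 shorter, with 4085 bp in all in old and 6150 bp in young. Among them Olfml2b had 1457 and 1965 bp. With equal numbers of peaks this list had 1 longer and 3 shorter. On the stretch of 4 lists it had 0 and 4 as labelled, 2 and 2 with old vehicle and 1 and 2 with young vehicle substituted. Macrophage genes were 2 longer and 7 shorter, with 8653 and 9899 bp in all; Spi1, the gene of the myeloid factor PU.1, had 675 and 1506 bp, and Lyn 1314 and 1426 bp. With equal numbers of peaks they were 5 longer and 4 shorter. Lymphocyte genes were 5 and 5, with 12141 and 11526 bp in all, and muscle fibre genes 6 and 9, with 21111 and 24028 bp. With equal numbers of peaks the muscle fibre genes were 9 longer and 5 shorter. Casq1, the calsequestrin of fast fibres, had 4295 and 4514 bp. Muscle stem cell genes were 3 and 2, with 6474 and 6903 bp in all. Tenocyte genes had 2 members with a peak, both shorter, and Schwann cell genes 1 longer and 1 shorter. Neural genes, listed as a background for this tissue, were 6 longer and 8 shorter, and 17 of 27 had an unmarked promoter in both libraries. With equal numbers of peaks they were 8 longer and 3 shorter.

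**Figure D5:**
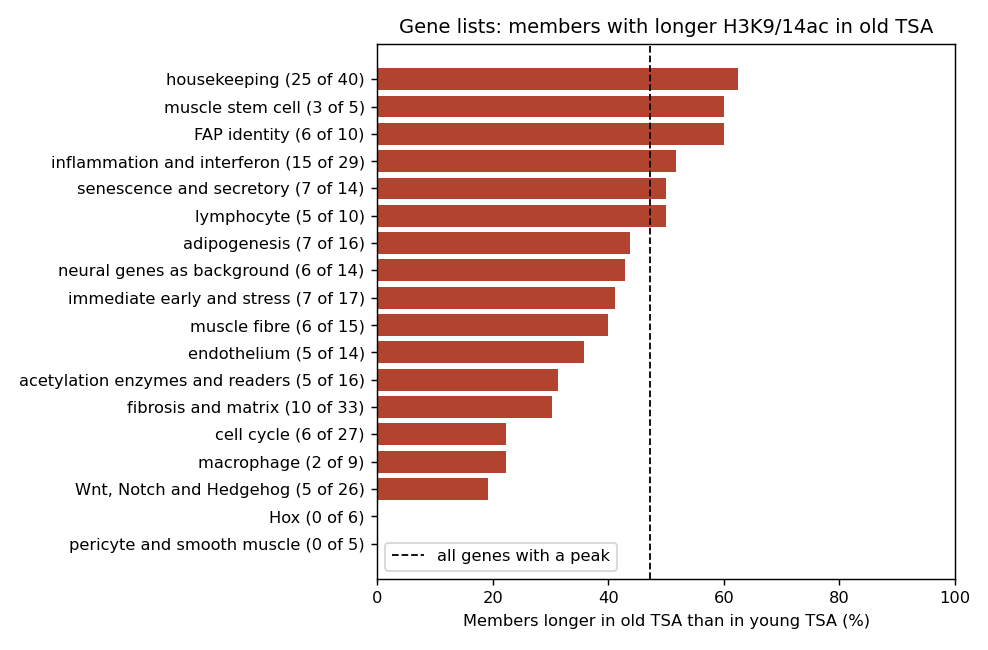
Share of list members (%) whose H3K9/14ac length was longer in old TSA than in young TSA, for the 18 lists with at least 5 members that had a peak, with the numbers in brackets; the dashed line is the share over all genes with a peak, 47.2%. Housekeeping genes stand at 25 of 40 and FAP identity genes at 6 of 10, cell cycle genes at 6 of 27, and Wnt, Notch and Hedgehog genes at 5 of 26.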

How the data were processed

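H3K9/14ac ChIP-seq peak lists of old TSA and young TSA FAPs were compared; H3K27ac TSA lists and H3K9/14ac vehicle lists served as side readouts. The authors deposited 1 list per library with whole-number tag counts per peak, not normalized; per the file headers, HOMER's differential peak program set each library against itself. The submitters' processing notes name Bowtie 0.12.7, MACS2, HOMER, TopHat2 2.0.9, HTSeq 0.6.1p1, DESeq2 and build GRCm38, without roles. Each list as used here ends in 1 incomplete line, which was dropped. Inputs and library totals were not used here.

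Peaks were merged, tag ratios used a pseudocount of 1, and gene windows shared out tags of crossing peaks by overlap (Python 3.11.15, pandas 2.3.3, scipy 1.17.1). Errors are from counting alone. Merging, region classes, centred ratios and gene windows were tested on simulated peaks of equal width. The effect of peak width on ratios, the annotation, the start-site profile and the motif search were not simulated. Genes came from RefSeq (GRCm38.p6): 4372 of 5252 had starts with strand, and gene ends stood in for 880. Of 632 listed symbols in 20 lists, 631 matched and 381 lay in the stretch. Named were the 10 regions with the highest and lowest ratios, the 10 strongest regions of each single library, the 10 largest gains and losses of length, and up to 6 members of each list by tags; others are marked, and a few items are not reported here. Members and lists were chosen with earlier results of these data known. The start-site profile, its gap, CpG classes and per-bp gene values were added after seeing the data. Alternatives changed overlap, list length, tag minimum, promoter and window size, pseudocount, centring, length scaling and library.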

Additional observations from a re-analysis of the deposited data

Results flagged for a closer look

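At 10 genes named for their gain or loss under TSA, acetylated length differed between old and young in the opposite direction under vehicle. This was seen with 1 library per group, and the difference between the treatments was not tested. The old minus young difference under TSA was 3251 bp at Zeb2, 2234 bp at Hnrnpu and 2164 bp at Calcrl, against -1840, -1463 and -1623 bp under vehicle. It was -10262 bp at Tns1 and -6087 bp at Rxra, against 14123 and 14028 bp under vehicle. It was -6902 bp at Dab2ip, -6278 bp at Notch1, -5888 bp at Soga1 and -5002 bp at Niban2, against 5479, 1848, 2927 and 5239 bp. Itpkb stood at -7103 bp under TSA and 243 bp under vehicle. Of the named genes that all 4 lists cover, Il1r1 had the same sign in both, 1979 and 77 bp. The genes were chosen for a large difference under TSA. The share of all genes with opposite signs is not given here, so the count cannot be read as particular to them. An exchange of labels within either pair of libraries would turn the sign as well, was not tested, and cannot be told apart from a difference between treatments here.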

How the results depend on the processing

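No paired analysis was possible because each group had 1 library and the labels give no replicate numbers; for the same reason no replicate could be left out. The lists used hold 24.3% and 24.6% of the peaks in the headers, and weak regions hold few tags. At a reciprocal overlap of 50%, 1211 regions were in old TSA only, and promoter shares (shared, old only, young only) were 80.5%, 43.2% and 29.4%. In the upper 50% of each list by tags there were 2271 shared, 80 old only and 754 young only regions, with promoter shares of 89.9%, 66.2% and 63.1%. With equal numbers of peaks, young only regions numbered 775 and promoter shares were 79.0%, 29.2% and 23.6%. With at least 50 tags a peak, 296 and 1136 regions were old only and young only, with shares of 80.8%, 31.1% and 25.8%. With promoters of 2500 bp the shares were 80.0%, 39.6% and 28.9%. A pseudocount of 10 gave 45 regions lower in old, and tags per bp gave 5 higher and 2 lower. In each of these settings shared regions had the highest promoter share. On the stretch of 4 lists, 541 genes were longer with old vehicle in place of old TSA. Per bp, the sign turned for Zeb2 (-0.37), Lrrc8a (-0.0099), Nfia (-0.38), Tns1 (0.87), Tln1 (0.35), Ralgds (0.39), Slco5a1 (0.26), Dab2ip (0.70), Casp8 (0.69), Gnas (0.38), Dnm1 (0.64) and Notch2 (0.51), as tags per bp takes out peak width. Length differences turned with old vehicle at Zeb2 (-2611 bp), Hnrnpu (-785 bp), Calcrl (-495 bp) and Rxra (4944 bp), and with young vehicle at Tns1 (4051 bp), Notch1 (627 bp), Rxra (2997 bp), Soga1 (86 bp) and Niban2 (3075 bp); the cause was not tested. Of the other values recomputed, 23 main and 209 gene or list values stayed near the reported ones, and 68 gene or list values moved. Among these, with young vehicle in place of young TSA, the balance of longer and shorter members turned for Wnt, Notch and Hedgehog genes (3 and 12 to 12 and 3), Hox genes (0 and 6 to 6 and 0) and macrophage genes (2 and 4 to 5 and 1), among other lists.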
